A study of Mus musculus with 7 samples.

Results

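Autophagy and lysosome genes were followed in muscle stem cells of young and geriatric mice. The set was a fixed list of 44 genes, 25 of the autophagosome machinery and 19 of the lysosome, and a gene was read where the name on an array probe equalled its symbol. Of the 44 genes, 42 had such a probe and 41 were measured well enough to be tested, 23 of the autophagosome and 18 of the lysosome, among 27397 tested features in all. Every one of these 41 genes was well above background on all 7 arrays, so none entered the test through 1 group alone. The exceptions were Tfeb and Tfe3, which the array lists under the older names Tcfeb and Tcfe3 and which are given separately, and Ctss, which no array measured well above background.

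The cells were satellite cells from skeletal muscle of male C57BL/6 mice, under homeostatic conditions, sorted as integrin α7+ and CD34+ and depleted of cells carrying CD31, CD45, CD11b or Sca1. Young mice were 2 months old (replicates 1 and 2) and 3 months old (replicate 3), and geriatric mice were 28 months (replicates 1 and 2), 29 months (replicate 3) and 30 months (replicate 4). No group carried a transgene or a treatment in the labels, and the labels do not tell single mice from pools, so the tests measure the spread between these samples. Geriatric replicates 1 and 2 are titled as separate replicates but share a sample name, and for 95.4% of probes their signals differed by less than 2 combined errors, against 59.6% to 67.0% for other pairs of arrays. They were averaged into 1 sample, and 3 young samples were compared with 3 geriatric ones. For the 41 genes the median absolute difference between these 2 arrays was 0.03 log2 units, against 0.16 to 0.30 for other pairs.

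Autophagy is the route by which a cell encloses its own cytoplasm, proteins or organelles in a double membrane, the autophagosome, and delivers them to the lysosome for breakdown. The ULK kinases start the process, the Beclin 1 and PIK3C3 lipid kinase complex marks the growing membrane, and a chain of conjugating enzymes attaches proteins of the ATG8 family (LC3 and GABARAP) to it. The lysosome holds acid hydrolases, kept acid by a proton pump, the V-ATPase. TFEB and TFE3 are transcription factors that switch on many genes of both systems through a short promoter element. In satellite cells, autophagy is known as a housekeeping process of quiescence, and the lysosomal enzyme encoded by Glb1 is the one that senescence-associated β-galactosidase staining detects.

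Shorter cores of that promoter element, known as the CLEAR element, were searched for in the promoters of the set, and its full 10-letter form was in 0 of 34 windows (0.37% of all genes). RefSeq promoter windows (GRCm38.p6, 250 bases before to 50 bases after a transcript start) matched 34 of the 44 genes. The 8 letters TCACGTGA, which read the same on both strands, stood in the window of 6 of 15 lysosomal genes (40%) and of 1 of 19 autophagosome genes (5.26%), against 1.12% of all 27025 genes with a window. Other lists had a lower share than these lysosomal genes, with 5 of 38 other lysosomal genes (13.2%), 1 of 12 other V-ATPase subunits (8.33%) and 0 of 34 other autophagy genes. The inner 6 letters CACGTG, which every such match contains, stood in 10 of 15 and 4 of 19, in 26.3%, 16.7% and 5.88% of the other lists in the same order, and in 8.09% of all genes. The matches that lie before a start with 16 bases on either side are printed because these genes share the 8 letters, which the capitals mark. The matches of Ctsa and Atp6v0d1 did not meet this condition and are not printed. The printed stretches lie at chr8:3500457-3500496 (Mcoln1), chr7:142387903-142387942 (Ctsd, minus strand), chrX:134601210-134601249 and chrX:134601177-134601216 (2 matches of Gla, minus strand), chr16:44139368-44139407 (Atp6v1a, minus strand) and chr16:45158741-45158780 (Atg3).
Mcoln1: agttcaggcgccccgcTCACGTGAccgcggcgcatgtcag
Ctsd: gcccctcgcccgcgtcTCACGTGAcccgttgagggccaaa
Gla, outer match: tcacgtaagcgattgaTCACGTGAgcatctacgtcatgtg
Gla, inner match: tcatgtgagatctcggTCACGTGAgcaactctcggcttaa
Atp6v1a: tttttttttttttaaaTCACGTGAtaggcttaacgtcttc
Atg3: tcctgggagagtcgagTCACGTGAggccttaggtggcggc
A match is a description of the letters and does not show that a factor binds there.

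The comparison of geriatric with young cells addresses how these genes behave as satellite cells reach very old age, when the study's title places them in senescence. No member of either group passed the test. With limma, 0 of 41 genes reached an adjusted p of 0.05, where 0.0256% of all tested features did (0.011% on the higher and 0.0146% on the lower side), and 0 of 41 had an unadjusted p under 0.05, where 7.23% of all features did. Of the 41 genes, 21 were higher and 20 lower in geriatric cells, and the median absolute log2 difference was 0.15, against 0.23 over all features. The groups did not overlap for 4 genes, among them Lamp1 on the higher side and Mcoln1 and Ctsa on the lower side, where 12.8% of all features did not overlap (7.18% higher and 5.65% lower). Levels are log2 signal relative to the 75th percentile of each array, differences are geriatric minus young on the same log2 scale, and errors of means are SD over n = 3 samples. Since each array is scaled to its own signal, a change in total RNA per cell shared by all genes cannot be seen here.

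The precision of the data bounds what was missed. The 95% interval of the difference lay within 1 log2 unit either way, that is within a 2-fold change, for 37 of the 41 genes, and its median half-width was 0.52. The exceptions were Ulk2, Atg12, Ctsh and Atp6v1h. Over all tested features the median half-width was 0.69. An adjusted p above the threshold does not show that a gene was equal in both groups.

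**Figure D1:**
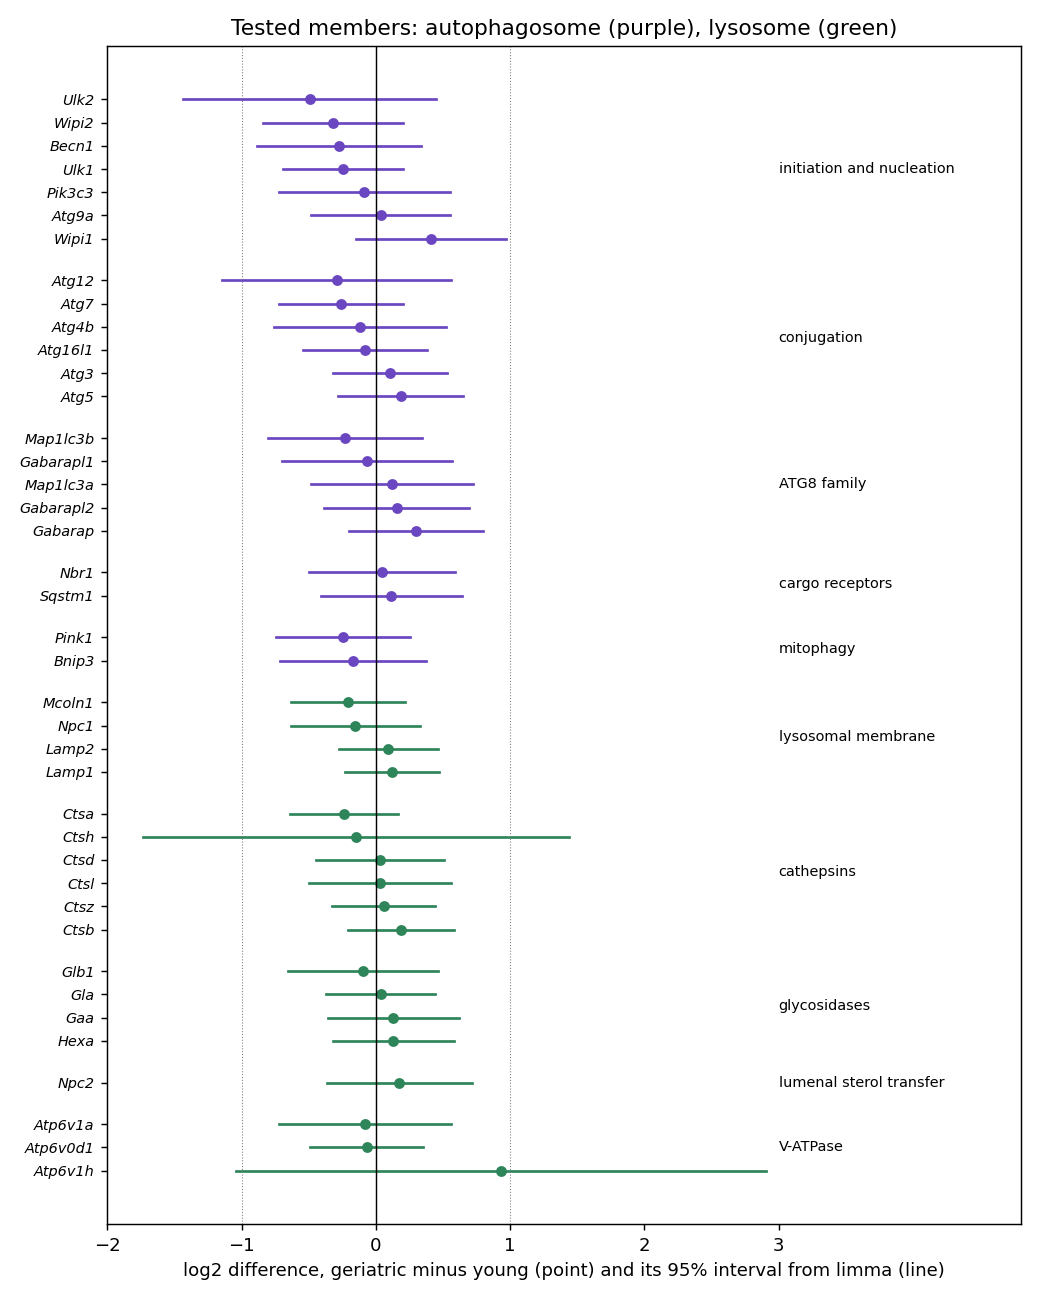
Log2 difference, geriatric minus young, of the tested genes (points) with its 95% interval from limma (lines), grouped by role; autophagosome genes are purple and lysosome genes green, and the dotted lines mark a difference of 1 either way. Every interval drawn includes 0, and those of Ctsh and Atp6v1h are the widest.

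Glb1, which encodes acid β-galactosidase, was read by 1 probe (A_51_P327564, chromosome 9, 114383136 to 114383195 on mm9). Its levels were -1.43, -0.92 and -1.33 in young cells and -1.05, -1.07, -1.57 and -1.34 on the 4 geriatric arrays. The geriatric values lay inside the young range except for replicate 3, which was the lowest array. The means were -1.23 ± 0.27 in young and -1.32 ± 0.25 in geriatric cells, a difference of -0.09 (SE 0.23, 95% interval -0.65 to 0.46, adjusted p = 0.960). It was 0.06 without young replicate 2 and 0.03 without geriatric replicate 3, so no direction was settled. With the array position as a block it was 0.18, a value that sets geriatric replicate 1 alone against the 3 young arrays. The other lysosomal glycosidases were on the higher side, Hexa, a subunit of β-hexosaminidase, by 0.13 (SE 0.18), Gaa, which breaks down glycogen, by 0.13 (SE 0.20) and Gla, α-galactosidase, by 0.04 (SE 0.17), each less than its own interval.

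Among the proteins of the lysosomal membrane, Lamp1 and Lamp2, the main glycoproteins of that membrane, varied least. Lamp1 (chromosome 8, 13175277 to 13175336) was at 3.27, 3.20 and 3.29 in young cells and at 3.33, 3.38, 3.39 and 3.38 on the geriatric arrays. All geriatric arrays were above all young ones, by a mean of 0.12 (SE 0.14, adjusted p = 0.908), a 1.09-fold ratio. With each array scaled to its median it was 0.03, and that of Lamp2 was 0.0012. Lamp2 (chromosome X, 35777505 to 35777564) was at 3.11, 3.17 and 3.19 against 3.17, 3.20, 3.36 and 3.20, with overlapping groups (0.09, SE 0.15). Mcoln1, the lysosomal calcium channel mucolipin, was at 1.87, 1.94 and 1.87 in young cells and at 1.75, 1.80, 1.46 and 1.83 on the geriatric arrays. All geriatric values were lower, the lowest in replicate 3, with a difference of -0.21 (SE 0.17, adjusted p = 0.859) that was -0.09 without that replicate. The cholesterol transporters Npc1 and Npc2, which pass cholesterol out of the lysosome, differed by -0.15 (SE 0.19) and 0.18 (SE 0.22).

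The cathepsins, the proteases of the lysosome, had differences of both signs, and none passed. Ctsa, a carboxypeptidase that also protects β-galactosidase, was at 2.01, 2.04 and 2.04 in young cells, and at 1.72, 1.72, 1.67 and 2.00 on the geriatric arrays (chromosome 2, 164665023 to 164665082). The geriatric values were lower without overlap, although replicate 4 at 2.00 came close to the lowest young array at 2.01, and the difference was -0.24 (SE 0.16, adjusted p = 0.825). A dimmer Ctsa probe gave 0.22. Ctsb was at 3.94, 4.07 and 4.07 against 4.03, 4.06, 4.27 and 4.32, with only geriatric replicates 3 and 4 above the young range (0.19, SE 0.16, adjusted p = 0.867). Ctsd, Ctsl and Ctsz differed by 0.03, 0.03 and 0.06. Ctsh varied more between samples than between groups, from -3.54 to -1.61 in young and from -3.80 to -2.04 in geriatric cells (-0.15, SE 0.64). Ctss, a cathepsin typical of macrophages and other antigen-presenting cells, lay between -8.22 and -7.19 on all arrays and was not well above background on any.

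The V-ATPase gave the largest difference of the set and the least certain one. Atp6v1h, a subunit of the pump's cytosolic part, was at -1.79, -2.42 and -4.74 in young cells and at -1.44, -1.36, -2.31 and -2.45 on the geriatric arrays. Young replicate 3 stood far below all other arrays, and the difference of 0.93 (SE 0.80, adjusted p = 0.866) was 0.05 without it. Atp6v1a, the catalytic subunit, and Atp6v0d1 differed by -0.08 (SE 0.26) and -0.07 (SE 0.17).

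**Figure D2:**
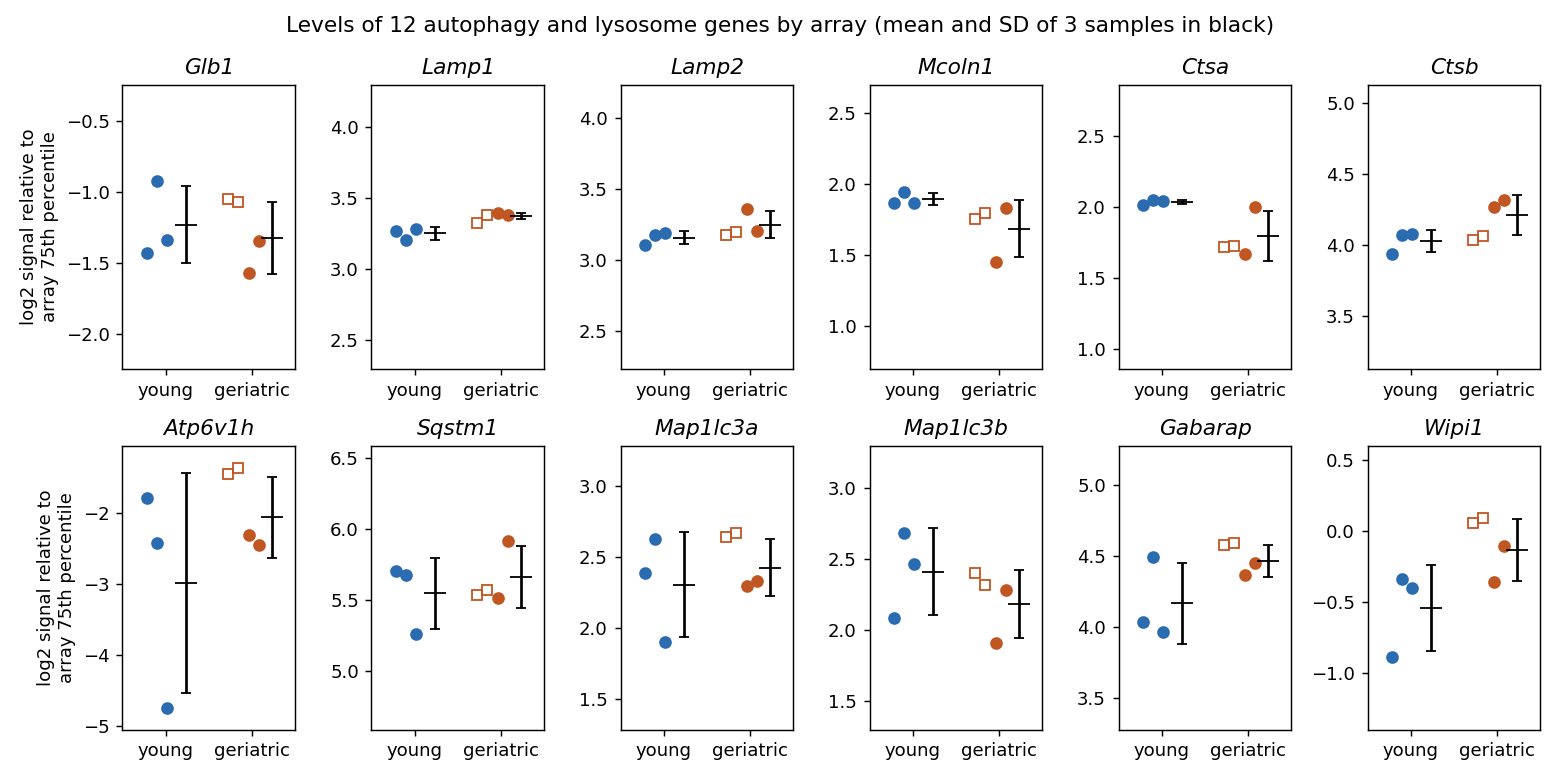
Levels of 12 genes (log2 signal relative to the array's 75th percentile) on the 3 young arrays (blue) and 4 geriatric arrays (orange; open squares are geriatric replicates 1 and 2, averaged into 1 sample), with mean and SD of 3 samples in black. Panels span 2 log2 units except Atp6v1h, which spans 4; Lamp1 geriatric arrays lie above the young ones, and the spread of Atp6v1h comes from young replicate 3 at -4.74.

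Of the genes that start autophagosome formation, 5 of 7 were lower in geriatric cells and 0 passed. Ulk1 and Ulk2, the initiating kinases, differed by -0.24 (SE 0.18) and -0.49 (SE 0.38), and Becn1 and Pik3c3 of the lipid kinase complex by -0.28 (SE 0.25) and -0.09 (SE 0.26). Ulk2 was at -0.84, -0.16 and -1.21 in young cells and at -1.82, -1.84, -0.95 and -0.90 on the geriatric arrays, so only the averaged sample lay below the young range. Wipi1 and Wipi2, which bind the lipid that the complex makes, had differences of opposite sign. Wipi1 was at -0.89, -0.34 and -0.40 against 0.05, 0.09, -0.36 and -0.11 (0.41, SE 0.23, adjusted p = 0.773), with geriatric replicate 3 inside the young range. Wipi2 was at 0.44, 1.08 and 0.83 against 0.43, 0.39, 0.45 and 0.53 (-0.32, SE 0.21, adjusted p = 0.813), with young replicate 1 among the geriatric values. Atg9a, the membrane protein of the vesicles that seed the autophagosome, differed by 0.04 (SE 0.21).

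The conjugation enzymes, which attach ATG8 proteins to the membrane, had 2 of 6 members higher and a median difference of -0.10. Atg7, the activating enzyme, was at 1.50, 1.50 and 1.39 in young cells and at 1.42, 1.52, 1.19 and 0.96 on the geriatric arrays (-0.26, SE 0.19, adjusted p = 0.837). Geriatric replicates 3 and 4 were below the young range and the averaged sample was inside it. The others ranged from -0.29 (Atg12, SE 0.35) to 0.19 (Atg5, SE 0.19), with Atg3, the enzyme that transfers the ATG8 proteins, at 0.11 (SE 0.17), Atg4b, the protease that trims them, at -0.12 (SE 0.26) and Atg16l1 at -0.08 (SE 0.19).

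The ATG8 family itself had 3 of 5 members higher. Map1lc3a was at 2.39, 2.63 and 1.90 in young cells and at 2.64, 2.67, 2.29 and 2.33 on the geriatric arrays, a difference of 0.12 (SE 0.24, adjusted p = 0.948). Leaving out young replicate 3 turned it to -0.08, and leaving out the averaged sample gave 0.0065. Map1lc3b, the LC3 form used to count autophagosomes, was at 2.08, 2.69 and 2.47 against 2.40, 2.32, 1.91 and 2.28 (-0.23, SE 0.23, adjusted p = 0.894), and its difference was -0.09 without young replicate 2 and also without geriatric replicate 3. The groups overlapped for both. Gabarap was at 4.04, 4.50 and 3.97 against 4.58, 4.59, 4.37 and 4.45 (0.30, SE 0.20, adjusted p = 0.820), where young replicate 2 reached the geriatric values. Gabarapl1 differed by -0.07 (SE 0.26) and Gabarapl2 by 0.15 (SE 0.22).

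Sqstm1, which encodes the cargo receptor p62 and is induced by stress, was at 5.71, 5.67 and 5.26 in young cells and at 5.54, 5.57, 5.51 and 5.92 on the geriatric arrays. Young replicate 3 was the lowest array and geriatric replicate 4 the highest, and the difference was 0.12 (SE 0.21, adjusted p = 0.941). It was -0.03 without the former and -0.01 without the latter. Of 8 tested genes of the dissociation stress response, such as Fos and Atf3, all 8 were higher in geriatric cells by a median of 0.14 and 0 passed. Their median deviation was -0.37 in young replicate 3 and 0.02 to 0.13 in the other samples, and their part in the Sqstm1 value was not tested. Nbr1, the second cargo receptor, differed by 0.05 (SE 0.22).

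Of the genes that clear damaged mitochondria, Pink1, a kinase that marks them, was at 2.35, 2.84 and 2.38 in young cells and at 2.29, 2.30, 2.13 and 2.41 on the geriatric arrays. The groups overlapped through geriatric replicate 4. Pink1 differed by -0.24 (SE 0.20) and the mitophagy receptor Bnip3 by -0.17 (SE 0.22).

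The second probe of several genes did not bear out the first. Of 14 members with more than 1 tested probe, 7 had the same sign on all probes and 7 did not. The first 30 of the 60 probe bases are shown for the 2 genes whose probes matter most here, with positions on mm9. Wipi1 was read at chr11:109443686-109443745 by the brighter and at chr11:109435140-109435199 by the dimmer probe, both on the minus strand. Gabarap was read at chr11:69808343-69808402, chr11:69806095-69806154 and chr11:69804812-69804871.
Wipi1 brighter probe: gtgtgcctccagcaacacggagaccgtgca
Wipi1 dimmer probe: tgtcaggtggttttggagagaacgaggaaa
Gabarap brightest probe: aatcccttcctttcactatcttctttttgg
Gabarap middle probe: tacttcttgatccggaagcgaattcatctc
Gabarap dimmest probe: taatttccgagaactgcagaactaaatctc
The dimmer Wipi1 probe was on the higher side like the brighter one. It gave 0.89 (SE 0.31) without overlap, with an adjusted p of 0.607 in a limma fit over all probes. Its 95% interval of 0.14 to 1.64 reached past 1 log2 unit, and the count of 37 genes within a 2-fold change rests on the brightest probes. Both bright Gabarap probes gave 0.30 and 0.31, while the dimmest gave -1.05. That probe was at -2.14, -2.34 and -2.10 in young cells and at -2.28 and -2.50 in geriatric replicates 3 and 4, and at -4.96 and -4.95 on both arrays of the averaged sample. The low value was thus repeated on 2 arrays of 1 sample name and absent from the other samples. Atg12, Bnip3, Ctsa, Ctsd and Wipi2 also had probes of opposite sign, with differences between -0.32 and 0.37. Which transcripts these probe positions belong to was not analysed here.

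**Figure D3:**
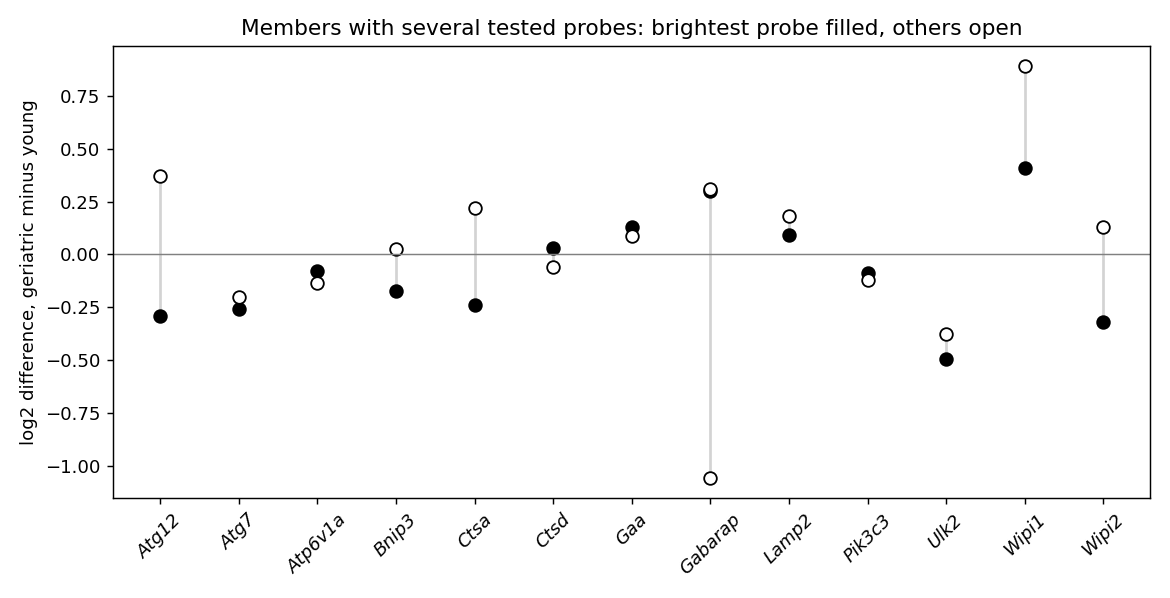
Log2 difference, geriatric minus young, of each tested probe of genes with several tested probes; filled circles are the brightest probe, which stands for the gene elsewhere, and open circles the others. Gabarap, Wipi2 and Atg12 have probes on opposite sides of 0.

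Across samples, the median deviations of neither large set separated young from geriatric cells. Taken as the deviation of each gene from its mean over the 6 samples, autophagosome genes had medians of -0.01, 0.17 and -0.05 in young replicates 1 to 3. They had 0.09 in the averaged sample, and replicates 3 and 4 of the geriatric group had -0.04 and -0.02. Lysosome genes had -0.07, 0.13 and -0.06 in the same young replicates, and 0.04, 0.02 and 0.02 in the geriatric samples. Young replicate 2 stood highest in both, and it was the highest of the 6 samples for 7 of 23 autophagosome and 8 of 18 lysosome genes. The median difference was -0.08 for autophagosome genes, with 10 higher and 13 lower, and 0.03 for lysosome genes, with 11 higher and 7 lower, where the median of all features was -0.0024. With each array scaled to its median in place of its 75th percentile the medians were -0.17 and -0.06, where the median of all features was -0.09. Without young replicate 2 they were 0.0083 and 0.08. All roles were looked at, and the summed signal did not overlap for 2 of them, which was not tested. For initiation and nucleation it was 13.7 to 16.1 times the 75th percentile in young and 12.4 to 13.6 times in geriatric samples. For the lysosomal membrane it was 24.1 to 24.5 against 24.8 to 25.2 times. Bright probes add most to such sums, and of the lysosomal membrane genes 2 were higher and 2 lower. The median deviations of both roles overlapped between young and geriatric samples.

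**Figure D4:**
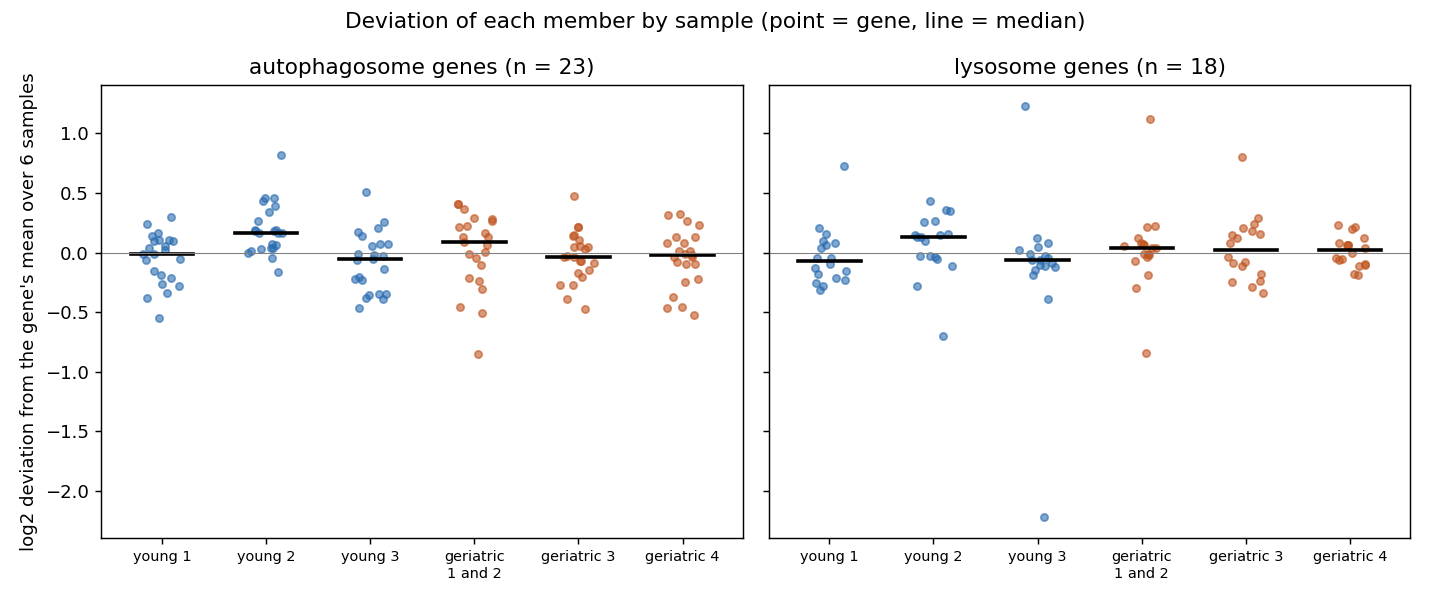
Log2 deviation of each gene from its own mean over the 6 samples (points), for 23 autophagosome and 18 lysosome genes, with the median per sample as a line; young samples are blue and geriatric orange. The medians lie between -0.07 and 0.17, the highest in young replicate 2, and the lowest point is Atp6v1h in young replicate 3.

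Tfeb and Tfe3, which encode transcription factors of many autophagy and lysosome genes, were read under their older names through the reference table. Tfeb was at -1.08, -0.15 and -1.17 in young cells and at -0.26, -0.17, -0.77 and -0.47 on the geriatric arrays, with young replicate 2 highest of all (0.31, SE 0.33, adjusted p = 0.900). Tfe3 was at 3.35, 3.12 and 3.04 against 3.37, 3.35, 3.01 and 3.03, with overlapping groups (-0.04, SE 0.19, adjusted p = 0.981). Their relative Mitf was at -2.29, -2.28 and -3.39 in young cells and at -1.43, -1.45, -1.05 and -1.70 on the geriatric arrays. All geriatric arrays were above the young ones, by 1.26 (SE 0.37), and Mitf did not pass (adjusted p = 0.525). No array measured Tfec well above background.

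Other genes of the pathway did not pass either. Of 39 other autophagy genes 0 passed, with 12 higher, 27 lower and a median difference of -0.08. Of these, Atg4a, a second ATG8 protease, was not well above background on any young array and was so on 3 of 4 geriatric arrays, at least 2.27-fold higher (adjusted p = 0.307), so it entered the test through the geriatric arrays alone. Its levels were -6.66, -7.99 and -8.16 in young cells and -5.27, -3.38, -4.06 and -5.61 on the geriatric arrays. Geriatric replicates 1 and 2, the pair of 1 sample name, differed here by more than 1 log2 unit. The other autophagy genes of smallest p were Tollip (0.39, SE 0.22), Pik3r4, a subunit of the PIK3C3 complex (-0.41, SE 0.20), and Snap29, which fuses the autophagosome with the lysosome (-0.33, SE 0.18). Atg101, read under an older name, differed by -0.40 (SE 0.18, adjusted p = 0.721).

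Of 48 other lysosomal genes 0 passed as well, with 19 higher, 29 lower and a median of -0.02. Here 7 genes had an unadjusted limma p under 0.05, where 7.23% of all features did. Acp5, the tartrate-resistant acid phosphatase, and Ctsk, cathepsin K, both known from osteoclasts, were well above background on each of the 3 young arrays but on 0 of the 4 geriatric ones. Acp5 was at -4.80, -5.00 and -4.54 in young cells and at -8.17, -7.56, -6.30 and -7.50 on the geriatric arrays, at least 1.53-fold lower (adjusted p = 0.275). Ctsk was at -4.34, -4.98 and -4.19 against -5.97, -6.42, -5.65 and -6.12, at least 1.80-fold lower (adjusted p = 0.300). Such a bound sets the young mean against the lowest signal counted as well above background, and both genes were dim in young cells. Acp5 and Ctsk entered the test through the young arrays alone, and they are 2 of the 7 genes. Of the 7 genes 4 were lower and 3 higher. Lgmn, the lower gene next in p and named beyond the rule, was well above background on all 7 arrays. Its difference was -0.97 (SE 0.25, adjusted p = 0.454). On the higher side Arsb, the lysosomal arylsulfatase B, was at 1.87, 1.55 and 2.01 against 2.44, 2.46, 2.22 and 2.48 (0.57, SE 0.19, adjusted p = 0.598), and Ctso, cathepsin O, differed by 0.58 (SE 0.21, adjusted p = 0.618).

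Of 16 other V-ATPase subunits 0 passed, with 10 higher and 6 lower. Tcirg1, the membrane subunit of osteoclasts, was at 4.45, 4.39 and 4.19 in young cells and at 3.80, 3.78, 2.97 and 3.89 on the geriatric arrays. All geriatric arrays were lower (-0.79, SE 0.29, adjusted p = 0.636), with replicate 3 lowest. Atp6v0e was higher without overlap by 0.33 (SE 0.15, adjusted p = 0.725), Atp6v1c1 differed by 0.28 (SE 0.18) and Atp6v0a2 by -0.20 (SE 0.22).

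**Figure D5:**
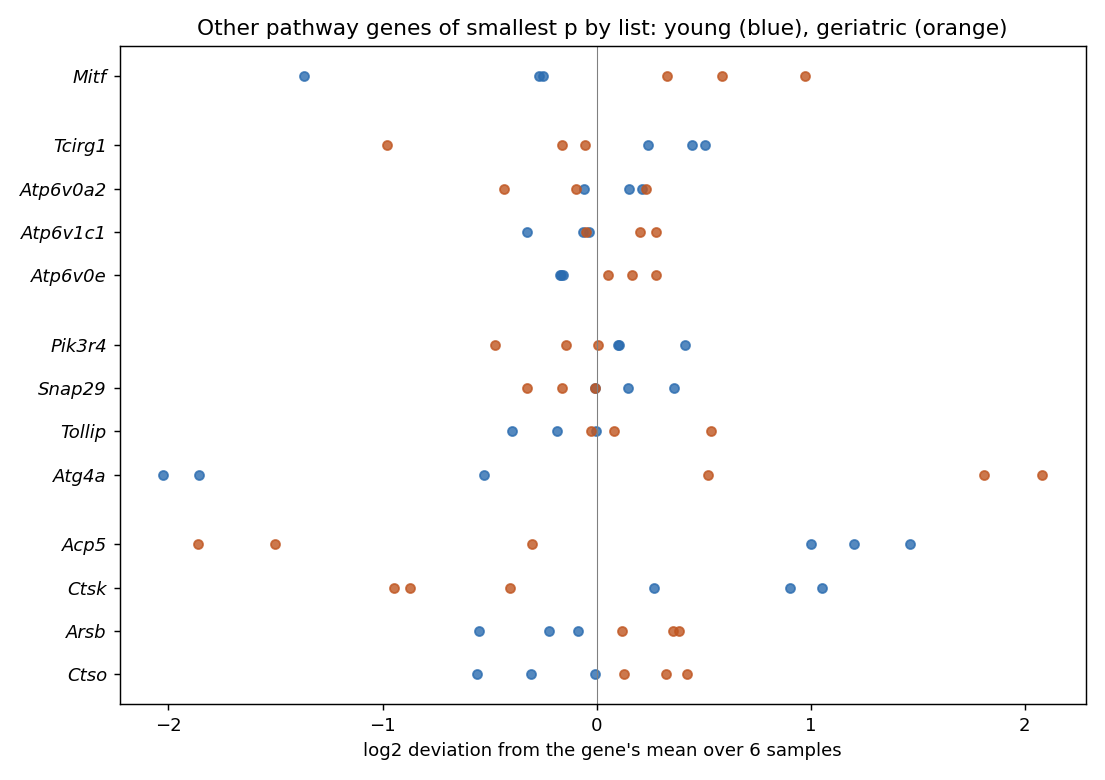
Log2 deviation from the gene's mean over 6 samples for the 13 other pathway genes named by the rule; blue points are young and orange points geriatric samples, and gaps separate the lists (MiT factors, V-ATPase, autophagy, lysosome). The groups do not overlap for Mitf, Tcirg1, Atp6v0e, Pik3r4, Atg4a, Acp5, Ctsk, Arsb and Ctso, none of which passed the test. The genes were picked by smallest p on these same values, so their lack of overlap follows in part from the choice. Of all tested features 12.8% did not overlap.

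Lysosomal genes are abundant in macrophages, which the sort was set to deplete through CD45 and CD11b. How far that depletion went was not tested. Of 16 macrophage and monocyte marker names on the array 10 were tested, with 7 higher in geriatric cells and a median difference of 0.22, and 0 passed. Their summed signal was 92.1 to 101.9 times the array's 75th percentile in young and 96.4 to 115.4 times in geriatric samples, nearly all of it from Itgam, which encodes the depleted antigen CD11b and was at 6.44 to 6.60 in young and 6.39 to 6.78 on geriatric arrays. Without Itgam the sums were 4.79 to 5.42 and 4.97 to 5.61. Most of that remainder came from Csf1r, at 2.01 to 2.23 in young and 2.02 to 2.16 on geriatric arrays. The sums thus mainly follow Itgam and Csf1r and say little about the dimmer markers. Lyz2, C1qa, C1qc, Mrc1, Tyrobp and Laptm5 were well above background on fewer than 3 arrays, and so was Ctss. Cd68, a lysosomal membrane protein of macrophages, was at -3.29, -3.48 and -2.81 in young cells, -6.68 and -7.55 in geriatric replicates 1 and 2, -2.18 in replicate 3 and -1.87 in replicate 4. It was 1 of 3 markers on the lower side (-0.53, SE 1.42), while the macrophage marker Cx3cr1 had the highest difference (0.90, SE 0.54). The part of such cells in the lysosomal values was not tested. All 10 satellite cell markers were well above background on every array, with a median difference of 0.06. Markers of fibro-adipogenic progenitors (8 of 10 higher, median 0.74), endothelial cells (4 of 7, 0.14), lymphocytes (2 of 2, 0.83) and pericytes (3 of 6, -0.06) had 0 members past the test. Of the 10 progenitor markers 3 had an unadjusted limma p under 0.05, where 7.23% of all features did. The pericyte differences ran from -2.43 to 2.24, the highest being Pdgfrb, chosen after its values were seen. Pdgfrb was at -3.88, -3.35 and -3.64 in young cells and at -1.51, -1.45, -1.45 and -1.22 on the geriatric arrays, without overlap (adjusted p = 0.060). The part of these cells in the values of the set was not tested.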

How the data were processed

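RNA of sorted satellite cells was amplified by whole transcriptome amplification and labelled with Cy3, per the labels' protocols, and hybridised to 7 Agilent 1-colour arrays on 1 slide. The authors' deposited intensity values came from Feature Extraction 10.7.3.1 with probe positions on mm9, per the file headers; its processed signal was spatially and multiplicatively detrended, without background correction and with surrogate values switched on. The authors' deposited log2 value table, whose normalization no label or header names, was an alternative.

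Each value was the log2 of the processed signal less that array's own 75th percentile (1330 to 1609 intensity units). Control spots and 124 to 229 outlier spots per array were left out, spots of a probe were averaged, and 0 spots were saturated. Probes well above background on at least 3 of 7 arrays (38048 to 41286 probes per array were) were tested, each name by its brightest probe. limma 3.58.1 in R 4.3.3 (lmFit, eBayes, 2-sided, Benjamini-Hochberg over 27397 features, threshold 0.05) was fitted to 3 young and 3 geriatric samples and was tested on simulated data. The number of arrays limits the precision. 1 member counts in the totals but is not reported here. Members, lists and tests were chosen with earlier results of these data known. Named were 8 listed members (Glb1, Sqstm1, Tfeb, Tfe3, Lamp1, Lamp2, Map1lc3a and Map1lc3b), the 5 autophagosome and 5 lysosome members of smallest p, members with probes of opposite sign or below background, and in each further list the 2 genes of smallest p in each direction. "At least" folds set the brighter group's mean against the higher of the dim probe's value and the array's lowest well-above-background signal. Symbols came from the array and the GRCm38.p6 RefSeq table. Figures used matplotlib 3.10.9.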

Additional observations from a re-analysis of the deposited data

How the results depend on the processing

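Under all 20 alternatives run, 0 of the 41 members passed the threshold. At most 1 member had an unadjusted p under 0.05 in a setting. Over all features the count of 7 past the threshold was 64 with geriatric replicates 1 and 2, which share a sample name, counted as 2 samples. It was 0 to 17 in the other alternatives. The median of the autophagosome genes was -0.17 to 0.0083 and that of the lysosome genes -0.06 to 0.08; without 1 array or the averaged sample they were -0.11 to 0.0083 and -0.02 to 0.08. The lysosome median was -0.057 with median scaling, its lowest value, where the median of all features was -0.09. Glb1 ranged from -0.23 to 0.06 with 1 array or the averaged sample left out. It was 0.18 with the array position number as a block and also within position number 1. Position number 1 holds the 3 young arrays and geriatric replicate 1, and the other position number holds only geriatric arrays. Both alternatives thus rest on the same contrast, and the lone geriatric array of position number 1 is assumed to vary like the young ones. The cause was not tested. With the replicate block Glb1 was at -0.00068 (adjusted p = 0.999) and no member's call changed. The replicate block and the array position block also counted geriatric replicates 1 and 2 as 2 samples. Same-numbered arrays correlated at -0.05, 0.07 and 0.0049 in their deviations, with those 2 replicates not averaged. With so few arrays these values do not settle whether the numbers pair the samples. The number of arrays limits what could be found, and Acp5, Ctsk and Atg4a lie close to background. Over the alternatives Sqstm1 was -0.03 to 0.20 and Map1lc3a -0.08 to 0.34; Gabarap was -0.15 with the mean of its probes. With the array position number as a block Ctsb was 0.0062, Atg7 -0.05, Map1lc3b -0.01 and Atp6v1h 1.54. With the mean of its probes Ctsa was -0.0079 and Wipi2 -0.10. Wipi1 rose to 0.65 in that setting, with an unadjusted limma p of 0.0069 and an adjusted p of 0.401.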

Other observations

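Among the 14 lysosomal genes with both a promoter window and a tested probe, the 10 with the letters CACGTG in the window had a median log2 difference of -0.02 (range -0.24 to 0.13) and the 4 without had 0.11 (0.06 to 0.18). The 7 members with the 8 letters TCACGTGA, Atg3, Mcoln1, Ctsa, Ctsd, Gla, Atp6v0d1 and Atp6v1a, lay between -0.24 and 0.11. The split was made after the values were seen and was not tested.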
